A study of Mus musculus with 28 samples.

Results

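The 9 genes described here have products that act on mitochondria when oxygen is low, and their levels are given across the 8 groups of the study. They are 3 mitophagy receptors, the kinase that starts the other route of mitophagy, 2 inner membrane proteins and 3 genes for alternative respiratory chain subunits. All 9 symbols were found among the 54429 gene identifiers of the count table. They were chosen with levels of these libraries in view, in particular the rise of Mgarp in hypoxic proliferating and osteoblast cultures, so the oxygen comparisons of those 2 culture conditions are given as descriptions without a test. The tests concern the oxygen comparisons of chondrocyte and smooth muscle cultures and the 6 comparisons of a differentiated with a proliferating culture. Those 6 use the proliferating libraries on which Mgarp was chosen, so there Mgarp too is described without a test and is left out of the counts.

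RNA sequencing was performed on O9-1 cells, one mouse cell line of cranial neural crest origin, for which the labels name no genetic change. Of the groups, 4 were kept at 21% O2 (normoxic, 4 libraries each) and 4 at 0.5% O2 (hypoxic, 3 libraries each), 28 libraries in all. Proliferating cells grew in medium conditioned by STO feeder cells with 15% foetal calf serum, 25 ng/ml bFGF and 5 ng/ml LIF. Osteoblast cultures spent 10 days with 10% serum, 10 mM beta-glycerophosphate, 0.1 µM dexamethasone and 100 ng/ml BMP-2. Chondrocyte cultures spent 3 days in that medium and then 7 days as Matrigel micromasses with 5% serum, 0.1 µM dexamethasone, 10 ng/ml TGF-beta3 and 50 ng/ml BMP-2. Smooth muscle cultures spent 3 days in DMEM with 10% serum. The labels do not say that the libraries of a group came from separate cultures, so the p-values measure the spread between these libraries, which may be technical.

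Mitophagy is the removal of whole mitochondria by autophagosomes. In one route, receptors that sit in the outer mitochondrial membrane (BNIP3, BNIP3L, also called NIX, and FUNDC1) bind LC3 and GABARAP proteins of the forming autophagosome. In the other, the kinase PINK1 builds up on damaged mitochondria and marks them for ubiquitination. Low oxygen stabilises the transcription factor HIF-1, which is known to act on BNIP3 and BNIP3L and on genes that refit the respiratory chain, among them those for NDUFA4L2, the COX4-2 isoform of complex IV and HIGD1A. MGARP, also known as HUMMR, is a mitochondrial protein induced by HIF-1 that takes part in the transport of mitochondria.

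Levels are given as counts per 1e+06 counts after scaling with the trimmed mean of M values (CPM), so a lower level can come from fewer cells of a type or from less of the RNA per cell, which cannot be told apart in bulk RNA. Library totals ranged from 19869271 to 64693346 counts. The 3 libraries labelled hypoxic smooth muscle stood apart from the other 25: their scaling factors were 0.505 to 0.533 (0.901 to 1.289 elsewhere), and mitochondrial ribosomal RNA took 11.6% to 13.3% of their counts (at most 0.0889% elsewhere). Their summed level of 7 smooth muscle markers was 94.8 to 119 CPM, with counts in 6 of 7 genes and none for Myocd, against 3531 to 3992 CPM in normoxic smooth muscle and 191 to 195 CPM in hypoxic proliferating cultures. The same markers were also high in other differentiated cultures and summed to 3566 to 5105 CPM in normoxic osteoblast, 2162 to 2435 CPM in hypoxic osteoblast, 2072 to 2524 CPM in normoxic chondrocyte and 94.2 to 103 CPM in normoxic proliferating libraries. The 9 chondrocyte markers summed to 3181 to 9669 CPM in normoxic and 905 to 1380 CPM in hypoxic chondrocyte cultures, with Matn1 at 0 in the latter. The 8 osteoblast markers summed to 65.3 to 148 CPM in normoxic osteoblast cultures, 376 to 404 CPM in hypoxic ones and 89.0 to 92.2 CPM in normoxic proliferating cells, and were highest in normoxic chondrocyte libraries (1108 to 2601 CPM). Runx2 made up most of the sum in normoxic proliferating (63.9 CPM) and normoxic osteoblast cultures (63.5 CPM). Between these, Phex fell from 23.3 to 0.484 CPM and Dmp1 from 3.18 to 1.15 CPM. Sp7 rose from 0.149 to 12.1 CPM, Alpl from 0.0331 to 11.4 CPM and Ibsp from 0 to 1.13 CPM. Bglap and Bglap2 stayed at or below 0.160 CPM. These means include normoxic osteoblast replicate 4, whose sum was 148 CPM against 65.3 to 74.3 CPM in the other 3 libraries. Normoxic osteoblast replicate 4 also stood apart, with chondrocyte markers at 1591 CPM against 192 to 211 CPM in the other 3 libraries. Of the neural crest markers, Foxd3 had no count and Sox10 had 1 count over all 28 libraries, while Twist1, Tfap2a and Ets1 were above 1 CPM in each group.

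The genes differ in how much transcript they give. Per kilobase of merged exons, the mean level of Bnip3 reached 387 CPM in hypoxic osteoblast cultures and that of Cox4i1 lay between 138 and 188 CPM in all groups but hypoxic smooth muscle, where it was 1323 CPM. On the same per-kilobase scale Mgarp did not exceed 37.1 CPM and Ndufa4l2 14.5 CPM, and Cox4i2 was at or below 0.43 CPM in every group.

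**Figure D1:**
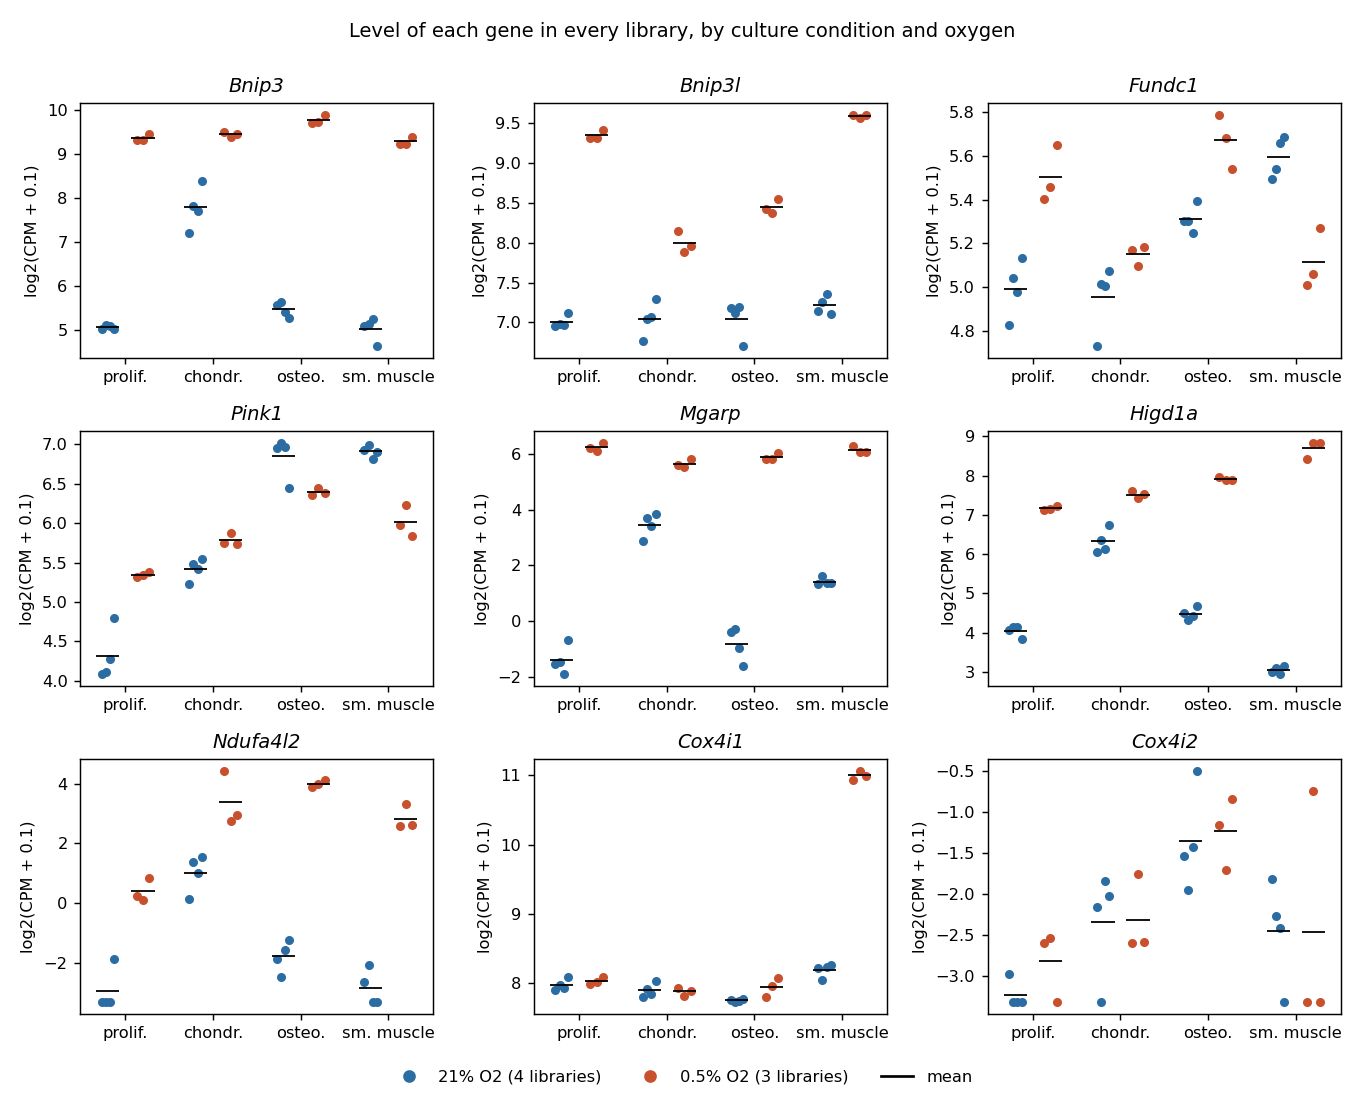
Level of each of the 9 genes in every library, as log2(CPM + 0.1), with blue points for 21% O2, red points for 0.5% O2 and a black line for the mean of the plotted values; each panel has its own vertical scale. Bnip3, Bnip3l, Mgarp and Higd1a are higher in every hypoxic library than in every normoxic library, while Pink1 has its highest means in the normoxic osteoblast and smooth muscle groups and Cox4i1 stands out only in the libraries labelled hypoxic smooth muscle.

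Bnip3 (ENSMUSG00000078566, chr7:138890836-138909519 on the minus strand, mm10) encodes the receptor that links mitochondria to the autophagosome under low oxygen. Its level was 32.7, 34.5, 34.2 and 32.7 CPM in the 4 normoxic proliferating libraries and 632, 636 and 699 CPM in the 3 hypoxic ones. In osteoblast cultures it was 47.6, 49.5, 42.4 and 38.6 CPM at 21% O2 and 835, 849 and 948 CPM at 0.5% O2. The groups did not overlap in either culture condition, with log2 differences of 4.35 (SE 0.053) and 4.30 (SE 0.11). Chondrocyte cultures held 148, 225, 210 and 336 CPM at 21% O2 and 721, 664 and 700 CPM at 0.5% O2. Every normoxic chondrocyte library was thus above every other normoxic library, and the rise at low oxygen was smaller, 1.59 on the log2 scale (SE 0.25, adjusted p = 0.00501). Smooth muscle libraries went from 34.0, 34.9, 37.7 and 24.8 CPM of Bnip3 to 602, 601 and 671 CPM, a rise of 4.31 on the log2 scale (SE 0.12, adjusted p = 1.52e-13). With library size as the only scaling this rise was 2.94.

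The RefSeq promoter table (GRCm38.p6, 300 bases around each gene's start) held 5 of the 9 genes. Bnip3l, Ndufa4l2, Cox4i1 and Cox4i2 were not among them. The letters ACGTG and GCGTG, the core that HIF factors bind, were searched on both strands, and a CACGTG counts as ACGTG on each strand. Over 32851 promoters of 300 bases, 43.8% held at least 1 match and 1.66% held 5 or more. The Bnip3 window held 5 matches (2 of ACGTG and 3 of GCGTG), the Higd1a window 3, the Mgarp and Pink1 windows 1 each, and the Fundc1 window none. The stretches before the first annotated exon are shown for Bnip3 and Mgarp, which were higher in all hypoxic libraries, and for Pink1, which was not. Capitals mark the matches on either strand, and each sequence runs 5′ to 3′ on the minus strand, toward the gene.
Bnip3, chr7:138909520-138909756: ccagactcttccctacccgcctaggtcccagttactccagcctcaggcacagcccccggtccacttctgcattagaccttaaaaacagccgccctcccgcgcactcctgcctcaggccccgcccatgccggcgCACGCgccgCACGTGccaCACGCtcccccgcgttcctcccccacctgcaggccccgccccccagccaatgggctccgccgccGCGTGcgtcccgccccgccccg
Mgarp, chr3:51396739-51396797: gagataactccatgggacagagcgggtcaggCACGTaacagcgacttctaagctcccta
Pink1, chr4:138326308-138326546: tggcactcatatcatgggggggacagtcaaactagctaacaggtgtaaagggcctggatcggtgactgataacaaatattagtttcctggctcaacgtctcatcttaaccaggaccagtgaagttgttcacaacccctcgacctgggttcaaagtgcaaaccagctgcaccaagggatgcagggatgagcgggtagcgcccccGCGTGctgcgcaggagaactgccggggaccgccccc
In the Bnip3 stretch the 5 matches fall in 4 runs of capitals, since CACGTG is read on both strands. The Mgarp and Pink1 stretches hold 1 match each. A match is a description of the letters and does not show that a factor binds there.

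Bnip3l (ENSMUSG00000022051, chr14:66985239-67008877, minus strand), the receptor known for clearing mitochondria from maturing red cells, was present at similar levels in all normoxic groups, with group means of 129 to 149 CPM whose libraries overlapped from each group to the next. At 0.5% O2 its means were 651 ± 25.9 CPM in proliferating, 349 ± 21.9 CPM in osteoblast, 256 ± 24.8 CPM in chondrocyte and 769 ± 13.1 CPM in smooth muscle cultures (SD, n = 3), and no library overlapped between neighbours in this order. The log2 difference was 2.39 (SE 0.056) in proliferating and 1.39 (SE 0.12) in osteoblast cultures. It rose by 0.94 in chondrocyte cultures (SE 0.11, adjusted p = 0.000190), from 109, 132, 134 and 157 CPM to 284, 237 and 248 CPM. In smooth muscle cultures it rose by 2.43 (SE 0.078, adjusted p = 5.72e-13), from 141, 152, 163 and 138 CPM to 776, 754 and 777 CPM. A processed copy, Bnip3l-ps, took 15040 counts over all libraries and moved with the gene, from 9.19 to 46.2 CPM in proliferating and from 8.95 to 60.4 CPM in smooth muscle cultures, so the split of reads between the 2 is uncertain.

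Fundc1 (ENSMUSG00000025040, chrX:17556564-17572325, minus strand), a receptor regulated mainly by phosphorylation, varied least with oxygen among the receptors. Its lowest group mean was 31.1 ± 3.15 CPM (SD, n = 4) in normoxic chondrocyte and its highest 50.9 ± 4.33 CPM (SD, n = 3) in hypoxic osteoblast cultures. The log2 difference between hypoxic and normoxic cells was 0.57 in proliferating and 0.36 in osteoblast cultures. In chondrocyte cultures it was 0.18 (SE 0.090) and did not pass the test (adjusted p = 0.178), although the libraries did not overlap (26.5, 32.3, 32.0 and 33.6 CPM against 35.9, 34.1 and 36.3 CPM). In smooth muscle cultures Fundc1 fell by 0.42 on the log2 scale (SE 0.10, adjusted p = 0.00202), from 45.0, 46.4, 50.4 and 51.3 CPM to 32.2, 33.3 and 38.5 CPM.

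Pink1 (ENSMUSG00000028756, chr4:138313409-138326307, minus strand) followed the culture condition more than oxygen. It was lowest in normoxic proliferating libraries, at 16.9, 17.1, 19.2 and 27.7 CPM, and highest in normoxic osteoblast libraries, at 124, 130, 125 and 87.0 CPM, and normoxic smooth muscle libraries, at 122, 127, 113 and 120 CPM. The last 2 groups overlapped. Its log2 difference with oxygen was 1.07 (SE 0.17) in proliferating and -0.47 (SE 0.13) in osteoblast cultures, where the libraries overlapped. In chondrocyte cultures Pink1 rose by 0.36 (SE 0.084, adjusted p = 0.00953), from 37.3, 44.7, 42.6 and 46.7 CPM to 53.8, 58.5 and 53.3 CPM. This call was lost in a fit of all 8 groups (adjusted p = 0.0513). It fell by 0.83 in smooth muscle cultures (SE 0.097, adjusted p = 1.78e-06), to 62.9, 74.8 and 57.1 CPM.

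Mgarp (ENSMUSG00000037161, chr3:51388412-51396738, minus strand) had the widest range among the genes with counts in every library. It was at 0.242, 0.257, 0.166 and 0.525 CPM in normoxic proliferating libraries (5 to 19 counts) and at 74.9, 69.4 and 85.6 CPM in hypoxic ones. In osteoblast libraries it was at 0.664, 0.710, 0.407 and 0.224 CPM at 21% O2 and at 56.4, 56.7 and 66.2 CPM at 0.5% O2. The log2 differences of 8.12 (SE 0.16) and 6.91 (SE 0.24) were the largest of all 13499 and 13324 genes with a mean of at least 10 counts in each group, which is the value it was chosen for. Among all genes tested, low counts included, it ranked 9th of 14156 and 20th of 14533.

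Chondrocyte and smooth muscle cultures give Mgarp values that the choice did not name. Normoxic chondrocyte libraries held 7.29, 13.1, 10.6 and 14.3 CPM and hypoxic ones 49.5, 46.1 and 56.3 CPM, a rise of 2.16 on the log2 scale (SE 0.20, adjusted p = 0.000147). Normoxic smooth muscle libraries held 2.39, 2.98, 2.47 and 2.48 CPM and hypoxic ones 78.6, 67.6 and 67.9 CPM, a rise of 4.85 (SE 0.12, adjusted p = 5.14e-14; 3.48 with library size alone). The hypoxic levels of the 4 culture conditions thus lay between 46.1 and 85.6 CPM, whereas the normoxic levels lay between 0.166 and 14.3 CPM. Over the 28 libraries the genes whose log2 levels were most like those of Mgarp were Ndrg1 (Pearson r = 0.976), Smtnl2 (r = 0.968) and Prelid2 (r = 0.968), out of 12930 genes compared. These points share culture groups and libraries, and the r values are descriptions.

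Higd1a (ENSMUSG00000038412, chr9:121848563-121858362, minus strand), a small inner membrane protein that binds complex IV, was the gene whose 8 groups were best told apart: no library overlapped between any 2 neighbours in the order of means. Its normoxic means were 8.18 ± 0.554 CPM in smooth muscle, 16.5 ± 1.62 CPM in proliferating, 22.3 ± 2.38 CPM in osteoblast and 81.3 ± 18.1 CPM in chondrocyte cultures (SD, n = 4). The hypoxic means were 143 ± 4.74 CPM in proliferating, 183 ± 11.7 CPM in chondrocyte, 240 ± 6.31 CPM in osteoblast and 417 ± 65.5 CPM in smooth muscle cultures (SD, n = 3). The log2 difference was 3.17 in proliferating and 3.43 in osteoblast cultures. Higd1a rose by 1.16 in chondrocyte cultures (SE 0.15, adjusted p = 0.00103). It rose by 5.73 in smooth muscle cultures (SE 0.12, adjusted p = 8.05e-15), where the libraries went from 7.84, 8.51, 7.60 and 8.78 CPM to 342, 456 and 454 CPM. With library size alone its highest group was hypoxic osteoblast rather than hypoxic smooth muscle.

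Ndufa4l2 (ENSMUSG00000040280, chr10:127514967-127517154, plus strand) encodes a relative of the complex IV subunit NDUFA4 that is known to lower respiratory chain activity in hypoxic cells. In normoxic proliferating cells 3 of 4 libraries had no count, which allows up to 0.0405 to 0.0994 CPM, and replicate 4 had 5 counts (0.175 CPM). The hypoxic proliferating libraries held 1.07, 0.970 and 1.68 CPM (27 to 49 counts). In osteoblast cultures the level went from 0.175, 0.0789, 0.237 and 0.320 CPM to 14.7, 15.7 and 17.3 CPM, a log2 difference of 6.22 (SE 0.27). Hypoxic osteoblast libraries thus lay far above hypoxic proliferating ones.

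In chondrocyte cultures Ndufa4l2 rose by 2.56 on the log2 scale (SE 0.51, adjusted p = 0.0111), from 0.988, 2.47, 1.88 and 2.80 CPM to 21.5, 6.66 and 7.62 CPM. Hypoxic replicate 1 was well above the other 2, and without it the rise was 1.82 (adjusted p = 0.00354). Smooth muscle libraries held 2, 5, 0 and 0 counts at 21% O2 and 5.85, 9.78 and 6.02 CPM at 0.5% O2. Ndufa4l2 passed the count filter there only through the hypoxic libraries, so the fitted log2 difference of 7.09 (SE 0.60), which rests on 7 normoxic counts, is a description without a test. Exons of Shmt2 on the other strand overlap Ndufa4l2 and took 152249 counts over all libraries against 3002 for Ndufa4l2, and how counting treated strand is not given in the sources used here. Shmt2 was at 347 CPM in normoxic proliferating libraries, where Ndufa4l2 was at or near 0, and at 224 CPM in hypoxic ones.

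Cox4i1 (ENSMUSG00000031818, chr8:120668222-120674207, plus strand), the common COX4 isoform of complex IV, was steady in 7 of the 8 groups, with library values between 211 and 307 CPM. The log2 differences with oxygen were 0.11 in proliferating and 0.20 in osteoblast cultures. In chondrocyte cultures the difference was -0.03 (SE 0.070, adjusted p = 0.815), with 222, 240, 229 and 261 CPM at 21% O2 and 243, 225 and 236 CPM at 0.5% O2. Between normoxic and hypoxic smooth muscle cultures Cox4i1 went from 296, 263, 300 and 307 CPM to 1960, 2147 and 2045 CPM, a rise of 2.88 (SE 0.078, adjusted p = 9.31e-14; 1.51 with library size alone). Emc8, which overlaps it on the other strand, stood at 47.6 and 54.5 CPM in the same groups.

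Cox4i2 (ENSMUSG00000009876, chr2:152754173-152765037, plus strand), the isoform that replaces COX4-1 in hypoxic cells of some tissues, was close to absent and passed the count filter in no comparison. Normoxic proliferating libraries held 1, 0, 0 and 0 counts and hypoxic ones 2, 2 and 0. Chondrocyte libraries held 4, 0, 5 and 4 counts at 21% O2 and 2, 5 and 2 at 0.5% O2, and smooth muscle libraries held 6, 4, 3 and 0 against 0, 5 and 0 counts. The highest counts were in osteoblast libraries, with 7, 4, 8 and 19 at 21% O2 and 9, 6 and 13 at 0.5% O2. The hypoxic and normoxic libraries overlapped in all 4 culture conditions, and no difference with oxygen was detectable at this depth. A library without a count allows up to 0.0405 to 0.278 CPM.

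**Figure D2:**
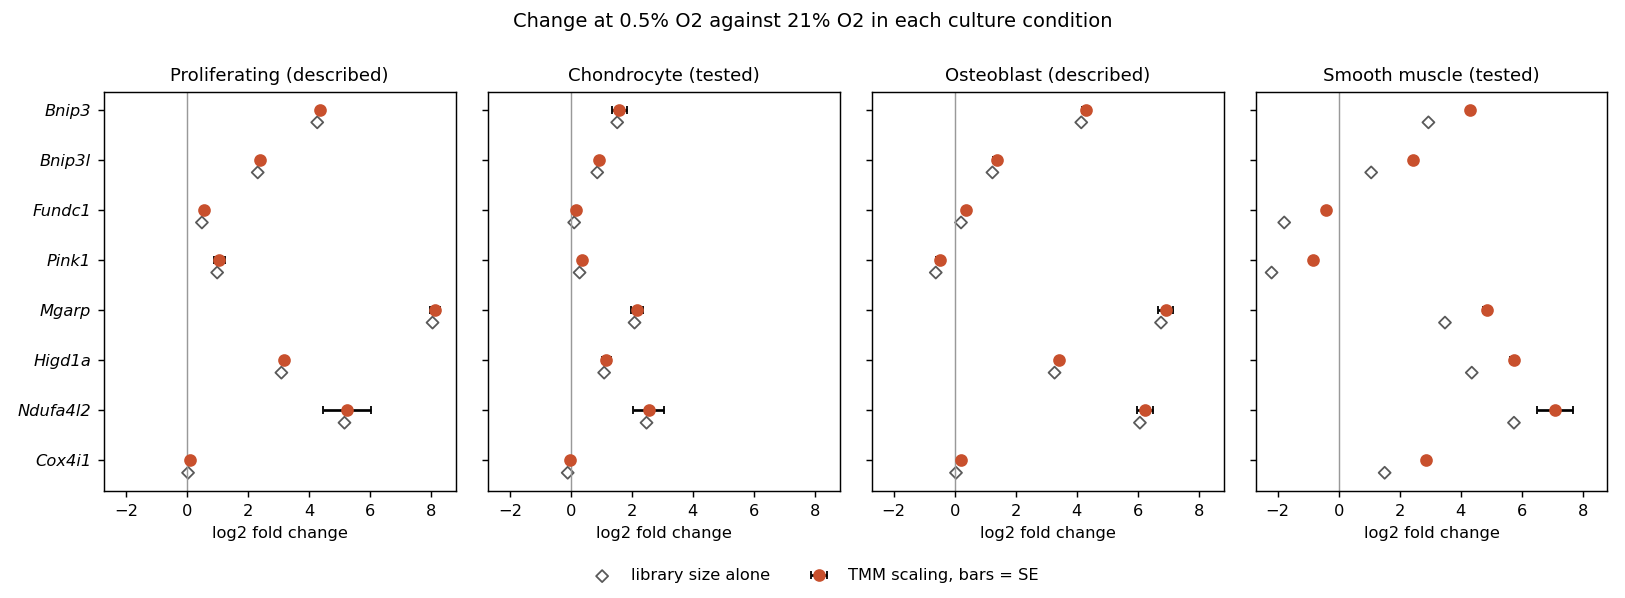
Log2 fold change at 0.5% against 21% O2 for the 8 genes that passed the count filter, in each culture condition, with red points for TMM scaling (bars are SE) and open diamonds for library size alone. Ndufa4l2 had at most 10 counts in any normoxic proliferating, osteoblast or smooth muscle library. Mgarp lies at 8.12 in proliferating and 6.91 in osteoblast cultures and at 2.16 in chondrocyte cultures; in smooth muscle cultures library size alone moves the median gene by -1.37, and the diamonds lie below the points by about that much.

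Counted over the genes, 6 of the 8 tested rose and none fell in chondrocyte cultures at low oxygen, where 10.4% of all 14205 genes tested rose and 11.8% fell (22.2% in all). Higher genes made up 46.9% of all calls there, and 31.8% with library size alone, under which the 6 calls held. Their median log2 difference was 1.05, against -0.01 for all genes tested. Between the same groups the chondrocyte markers went from 3181 to 9669 CPM to 905 to 1380 CPM in sum, and their part in these differences was not tested. In smooth muscle cultures, leaving out Ndufa4l2, 5 of 7 rose and 2 fell, where 35.4% of 14914 genes rose and 40.2% fell (75.6% in all). Higher genes made up 46.8% of all calls, and 15.6% with library size alone. Since most genes were called there, the count says little about these genes, and the sizes of the differences say more. In the 2 oxygen comparisons the genes were chosen on, 6 of 8 in proliferating and 5 of 8 in osteoblast cultures differed by at least 1 on the log2 scale. Of all genes tested 19.2% and 24.8% did so, but the choice used these values, so the counts are descriptions only. Both counts include Mgarp and Ndufa4l2. Ndufa4l2 had 0 to 5 counts in normoxic proliferating and 2 to 10 in normoxic osteoblast libraries. Without normoxic osteoblast replicate 4 the osteoblast differences were 4.24 for Bnip3, 1.28 for Bnip3l, 6.66 for Mgarp, 6.53 for Ndufa4l2, 3.50 for Higd1a and -0.59 for Pink1.

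The oxygen difference itself differed between chondrocyte and smooth muscle cultures for 7 genes in a fit of those 4 groups, where 65.1% of all 15743 genes were called, 35.2% with the higher and 30% with the lower value in chondrocyte cultures. Chondrocyte minus smooth muscle, it was -2.66 for Bnip3 (SE 0.30, adjusted p = 3.68e-06), -2.63 for Mgarp (SE 0.24, adjusted p = 1.19e-08), -4.51 for Higd1a (SE 0.20, adjusted p = 1.89e-12), -2.85 for Cox4i1 (SE 0.11, adjusted p = 2.04e-14) and -1.44 for Bnip3l (SE 0.14, adjusted p = 1.95e-08). For Fundc1 it was 0.66 (SE 0.14, adjusted p = 0.000317) and for Pink1 1.25 (SE 0.13, adjusted p = 6.54e-08). For Ndufa4l2 the fitted value was -4.48 (SE 0.90), which rests on the 7 counts of normoxic smooth muscle and is given without a test. With library size alone the median gene moved from 0.12 to 1.35 in this comparison and the share of higher calls from 54.0% to 84.5%, and the Bnip3l difference no longer passed the test (-0.20, adjusted p = 0.191), while the other 6 kept their direction and their call. The lower smooth muscle markers and the high mitochondrial ribosomal RNA of the hypoxic smooth muscle libraries, and the lower chondrocyte markers of the hypoxic chondrocyte libraries, move with every value of this comparison, and their part in it was not tested.

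Chondrocyte cultures differed from proliferating cells at 21% O2 already. Bnip3 was higher by 2.85 on the log2 scale (SE 0.22, adjusted p = 2.19e-06), Higd1a by 2.37 (SE 0.15, adjusted p = 8.18e-08) and Pink1 by 1.16 (SE 0.16, adjusted p = 4.61e-05). Ndufa4l2 passed the count filter only through the chondrocyte libraries, and its fitted difference of 5.95 (SE 0.80), against the 5 counts of proliferating replicate 4, is not tested. The log2 difference of Mgarp was 5.37 (SE 0.31). Of the 6 other genes 3 rose and none fell, where 37.7% of 14360 genes rose and 37.2% fell (74.9% in all). Bnip3l, Fundc1 and Cox4i1 did not pass the test, with log2 differences of 0.12, 0.038 and -0.0012; Bnip3l did without chondrocyte replicate 1 (0.22, adjusted p = 0.0173). With library size alone these 3 were lower and past the threshold (-0.23, -0.31 and -0.35), and that scaling moves the median gene by -0.35 and the share of higher calls from 50.3% to 34.7%. Of the 12 HIF targets outside the mitochondrion, 9 were higher and none lower (median 1.97), or 9 and 3 with library size alone.

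Within the normoxic chondrocyte group, 8 of the 9 genes had their lowest level in replicate 1 and their highest in replicate 4, the exception being Cox4i2. Bnip3 differed 2.27-fold and Ndufa4l2 2.84-fold between those 2 libraries, and Cox4i1 1.18-fold. The same 2 libraries were the lowest and the highest for 6 of 12 HIF target genes, and for 16.4% of 12411 genes with a mean of at least 1 CPM. The chondrocyte marker sums do not follow that order: they were 3181 and 4154 CPM in replicates 1 and 4, and 9160 and 9669 CPM in replicates 2 and 3. The smooth muscle marker sums do follow it, at 2072, 2382, 2403 and 2524 CPM in replicates 1 to 4. Those of the osteoblast markers do not, at 1414, 2601, 1860 and 1108 CPM. The part of any of them in the spread was not tested.

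Osteoblast cultures at 21% O2 differed from proliferating cells mainly in Pink1, which rose by 2.58 (SE 0.19, adjusted p = 1.21e-06). Between the same groups the 7 smooth muscle markers went from 94.2 to 103 CPM to 3566 to 5105 CPM in sum, and the part of this in the Pink1 difference was not tested. Higd1a rose by 0.49 (adjusted p = 0.00148), Bnip3 by 0.46 (adjusted p = 0.000448) and Fundc1 by 0.37 (adjusted p = 0.00168), and Cox4i1 fell by 0.18 (adjusted p = 0.0224). These are 4 higher and 1 lower of 6 tested, where 40.9% of 14434 genes rose and 37.8% fell (78.7% in all). Bnip3l did not pass (0.11, adjusted p = 0.373), but did without osteoblast replicate 4, the library with the high chondrocyte markers (0.17, adjusted p = 0.0104), and the other 5 kept their calls without it. The log2 difference of Mgarp was 0.82 (SE 0.47) between libraries that overlapped, and 1.03 without that replicate.

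Smooth muscle cultures at 21% O2 had more Pink1 than proliferating cells, by 2.64 (SE 0.15, adjusted p = 5.50e-08), again with the rise of the smooth muscle markers, to 3531 to 3992 CPM. Mgarp differed by 3.20 (SE 0.31), with no overlap. Fundc1 rose by 0.65 (adjusted p = 8.07e-07), Cox4i1 by 0.27 (adjusted p = 0.00119) and Bnip3l by 0.26 (adjusted p = 0.00157), while Higd1a fell by 0.96 (SE 0.099, adjusted p = 2.25e-07). Bnip3 did not pass the test, at 0.02 (adjusted p = 0.842). The counts are 4 higher and 1 lower of 6 tested, where 40.8% of 14582 genes rose and 38.9% fell (79.7% in all). The Bnip3l call was lost in the fit of all 8 groups (adjusted p = 0.0525).

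**Figure D3:**
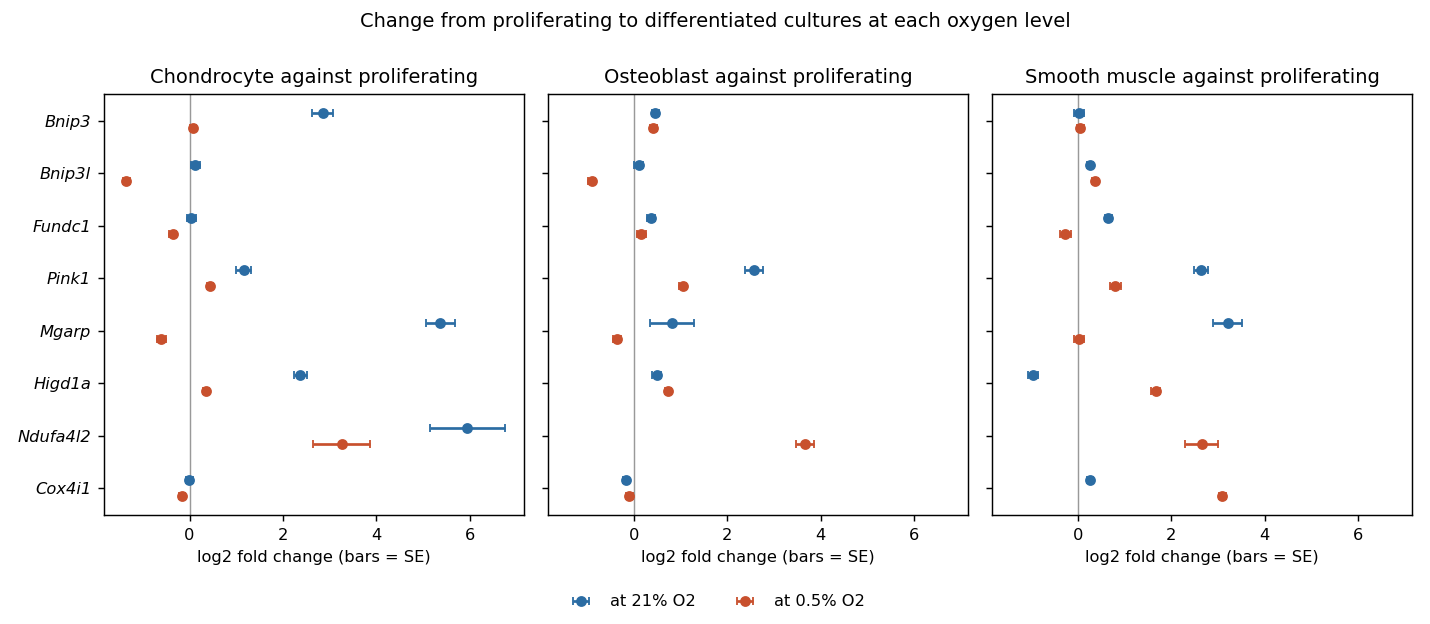
Log2 fold change of each differentiated culture against proliferating cells, with blue points at 21% O2, red points at 0.5% O2 and bars for SE; Ndufa4l2 had too few counts for a blue point in osteoblast and smooth muscle cultures. Mgarp lies at 5.37 in normoxic and -0.60 in hypoxic chondrocyte cultures, and Bnip3 at 2.85 and 0.08.

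At 0.5% O2 Ndufa4l2 was higher in each differentiated culture than in hypoxic proliferating cells. It was higher by 3.25 in chondrocyte (SE 0.60, adjusted p = 0.00384), by 3.67 in osteoblast (SE 0.19, adjusted p = 1.11e-10) and by 2.65 in smooth muscle cultures (SE 0.35, adjusted p = 3.62e-05). The chondrocyte value was 2.52 without hypoxic chondrocyte replicate 1. These 3 comparisons share the hypoxic proliferating libraries, at 27 to 49 counts of Ndufa4l2.

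In hypoxic chondrocyte cultures Bnip3l fell by 1.35 (SE 0.072, adjusted p = 1.91e-09), Fundc1 by 0.36 (adjusted p = 0.00135) and Cox4i1 by 0.16 (adjusted p = 0.0265) relative to hypoxic proliferating cells. Higd1a rose by 0.35 (adjusted p = 0.000256) and Pink1 by 0.44 (adjusted p = 8.72e-05), so that with Ndufa4l2 3 of 7 rose and 3 fell, where 34.9% of 14347 genes rose and 34.6% fell (69.5% in all). Bnip3 did not pass, at 0.08 (adjusted p = 0.292), and the log2 difference of Mgarp was -0.60 (SE 0.091). With library size alone, which moved the median gene by -0.33 and the share of higher calls from 50.2% to 31.8%, Bnip3 was lower (-0.25, adjusted p = 0.00228) and the calls of Higd1a (0.017, adjusted p = 0.814) and Pink1 (0.11, adjusted p = 0.174) were lost. The Cox4i1 call was lost in the fit of all 8 groups (adjusted p = 0.0926), without hypoxic proliferating replicate 2 or 3 (adjusted p = 0.0679 and 0.100) and without hypoxic chondrocyte replicate 2 or 3 (adjusted p = 0.0990 and 0.0591).

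Hypoxic osteoblast cultures had less Bnip3l, by -0.90 (SE 0.068, adjusted p = 9.98e-09) than hypoxic proliferating cells. They had more Pink1, by 1.05 (SE 0.073, adjusted p = 3.93e-09), more Higd1a, by 0.74 (adjusted p = 5.26e-08), and more Bnip3, by 0.42 (adjusted p = 7.89e-05). Counting Ndufa4l2, 4 of 7 rose and 1 fell, where 36.2% of 14338 genes rose and 35.1% fell (71.3% in all; 50.8% of calls higher, 38.2% with library size alone). Fundc1 (0.16, adjusted p = 0.122) and Cox4i1 (-0.09, adjusted p = 0.294) did not pass, though both did without hypoxic osteoblast replicate 3 (0.23, adjusted p = 0.0167, and -0.15, adjusted p = 0.0350), and Cox4i1 also with library size alone (-0.32, adjusted p = 0.00112). The log2 difference of Mgarp was -0.36 (SE 0.091).

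The libraries labelled hypoxic smooth muscle had more Cox4i1, by 3.09 (SE 0.072, adjusted p = 3.34e-11), and more Higd1a, by 1.66 (SE 0.10, adjusted p = 7.21e-08), than hypoxic proliferating libraries. Pink1 was higher by 0.80 (adjusted p = 5.58e-05), Bnip3l by 0.36 (adjusted p = 0.000395), and Fundc1 was lower by -0.27 (adjusted p = 0.0493), a call lost without any 1 of 4 libraries (hypoxic proliferating replicates 2 and 3, hypoxic smooth muscle replicates 1 and 2, with adjusted p of 0.0683 to 0.174) and with DESeq2 (adjusted p = 0.129), RLE scaling (adjusted p = 0.108) or a minimum of 10 counts in every library (adjusted p = 0.0588). The Bnip3l call was lost in the fit of all 8 groups (adjusted p = 0.0534). Bnip3 did not pass the test, at 0.05 (adjusted p = 0.557), and the log2 difference of Mgarp was 0.02 (SE 0.11). This makes 5 of 7 higher and 1 lower, where 33.8% of 14080 genes rose and 36.2% fell (70% in all). With library size alone the median gene moved from -0.07 to -1.35 and the share of higher calls from 48.3% to 15.0%, and Bnip3l (-0.92), Pink1 (-0.48), Bnip3 (-1.23) and Mgarp (-1.25) were all lower, while Cox4i1 (1.82), Ndufa4l2 (1.37) and Higd1a (0.38) stayed higher.

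Count ratios within a library need no scaling between libraries. They are not corrected for gene length and are read between groups only. Bnip3 made up 19.1% to 21.5% of the summed Bnip3 and Bnip3l counts in normoxic proliferating libraries, 22.5% to 27.1% in normoxic osteoblast and 15.3% to 19.4% in normoxic smooth muscle libraries. It made up 57.6% to 68.2% in normoxic chondrocyte libraries. At 0.5% O2 the share was 49.9% to 50.7% in proliferating, 71.7% to 73.9% in chondrocyte, 70.9% to 72.0% in osteoblast and 43.7% to 46.4% in smooth muscle libraries. The log2 ratio was higher in hypoxic than in normoxic chondrocyte cultures by 0.70 and in hypoxic than in normoxic smooth muscle cultures by 1.89, with no overlap in either case. An exact two-sided permutation test gave p = 0.0571 for both, the smallest that 4 against 3 libraries allow, and 0.125 after adjustment over the 24 ratio tests. None of the 24 passed 0.05 after adjustment, the smallest adjusted value being 0.125. None could have passed. The smallest p possible was 0.0286 for 4 against 4, 0.0571 for 4 against 3 and 0.1 for 3 against 3 libraries, which the adjustment takes past 0.05. The tests therefore cannot decide whether the ratios differ.

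Ndufa4, the complex IV subunit that NDUFA4L2 resembles, had a lower mean in the hypoxic or the differentiated group in all 8 tested pairs of groups, which share libraries with each other. In chondrocyte cultures at low oxygen it fell by 0.44 (SE 0.080, adjusted p = 0.00246), from 64.4 ± 4.03 (SD, n = 4) to 47.9 ± 3.34 CPM (SD, n = 3), and in smooth muscle cultures by 0.62 (SE 0.14, adjusted p = 0.000772), from 62.4 ± 9.23 (SD, n = 4) to 38.9 ± 6.72 CPM (SD, n = 3). Hypoxic osteoblast cultures had the least, 26.5 ± 1.09 CPM (SD, n = 3), lower by -1.07 than hypoxic proliferating cells (adjusted p = 4.06e-08). Ndufa4l2 accounted for 34.9% to 40.5% of the summed Ndufa4l2 and Ndufa4 counts in hypoxic osteoblast libraries, 11.8% to 32.8% in hypoxic chondrocyte, 12.0% to 19.2% in hypoxic smooth muscle and 1.66% to 3.22% in hypoxic proliferating libraries. In normoxic chondrocyte libraries the share was 1.39% to 4.41%, and in the other normoxic groups it was at most 0.436%. The oxygen difference of the log2 ratio was 2.86 in chondrocyte cultures (exact two-sided permutation p = 0.0571, adjusted 0.125), with no overlap between libraries. In smooth muscle cultures it is not given a test, since 2 of the 4 normoxic libraries had no Ndufa4l2 count and their ratio is set by the 0.5 added. The Cox4i2 to Cox4i1 ratio rests on counts at or near 0 and is not given.

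**Figure D4:**
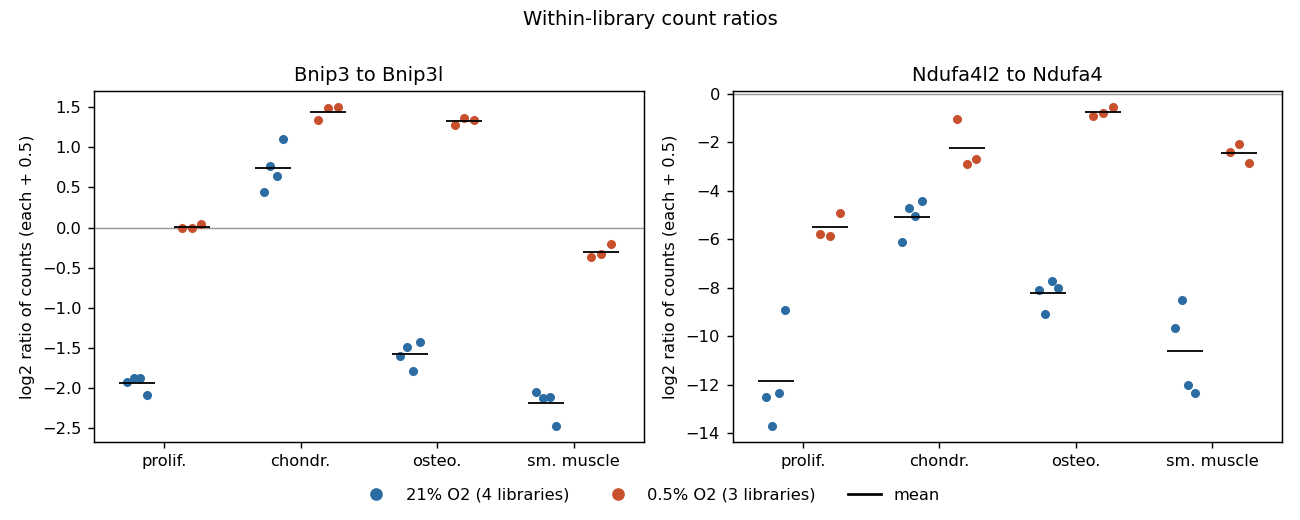
Within-library log2 ratio of Bnip3 to Bnip3l counts and of Ndufa4l2 to Ndufa4 counts (0.5 added to each count), with blue points for 21% O2, red points for 0.5% O2 and black lines for means. Normoxic chondrocyte libraries lie between 0.44 and 1.10 for Bnip3 to Bnip3l, above every other normoxic library, and hypoxic osteoblast libraries lie highest for Ndufa4l2 to Ndufa4, at a mean of -0.74.

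The wider pathway was read from 6 lists. Of 23 other mitophagy receptors and adaptors tested in chondrocyte cultures, 5 rose at low oxygen and none fell (median 0.07), a share of calls near the 22.2% of all genes called. Optn, the adaptor optineurin, rose by 0.60 (SE 0.065, adjusted p = 8.52e-05), from 64.6 to 98.3 CPM, and Calcoco1, a receptor for selective autophagy, by 0.59 (SE 0.066, adjusted p = 9.14e-05), from 49.3 to 74.8 CPM. Of 21 autophagosome genes 7 rose and 2 fell (median 0.19; 4 and 3 with library size alone), a count of 9 called that was 4 without hypoxic chondrocyte replicate 3. Gabarapl1 and Map1lc3b, the partners of the receptors on the autophagosome, rose by 0.57 (SE 0.069, adjusted p = 0.000174) and 0.40 (SE 0.063, adjusted p = 0.000980), and Tfeb, a transcription factor of lysosome genes, fell by 0.61 (SE 0.14, adjusted p = 0.00810), as did Atg3, an LC3-conjugating enzyme (-0.26, SE 0.068, adjusted p = 0.0175), whose call was lost without any 1 of 4 libraries (normoxic replicates 2 and 3, hypoxic replicates 2 and 3).

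Of 17 genes of mitochondrial fission, fusion and transport 2 fell and none rose in chondrocyte cultures (median 0.08), where 11.8% of all genes fell and 10.4% rose. They were Trak1 by 0.40 (SE 0.070, adjusted p = 0.00201) and Trak2 by 0.29 (SE 0.068, adjusted p = 0.00962), adaptors that tie mitochondria to motor proteins. Of 19 other complex IV and COX4 turnover genes, 2 rose and 1 fell (median 0.07), near those shares. Lonp1, the matrix protease known to degrade COX4-1, rose by 0.58 (SE 0.067, adjusted p = 0.000116), from 181 to 273 CPM, and the fall was that of Ndufa4. Mitochondrial biogenesis gave 1 rise and 1 fall of 13 tested (median -0.07): Mxi1, a repressor of MYC targets, rose by 1.25 (SE 0.082, adjusted p = 1.96e-06), and Pprc1, a coactivator related to PGC-1alpha, fell by 0.29 (SE 0.084, adjusted p = 0.0271). The Pprc1 call was lost in the fit of all 8 groups and without normoxic replicate 2 or any 1 of the 3 hypoxic libraries (adjusted p = 0.0541 to 0.100). Of 12 HIF targets outside the mitochondrion 11 rose and none fell (median 1.65), with Ankrd37 up by 2.37 (SE 0.17, adjusted p = 2.57e-05) and the carbonic anhydrase Car9 by 2.02 (SE 0.24, adjusted p = 0.000145). The median of all 14205 genes was -0.01.

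**Figure D5:**
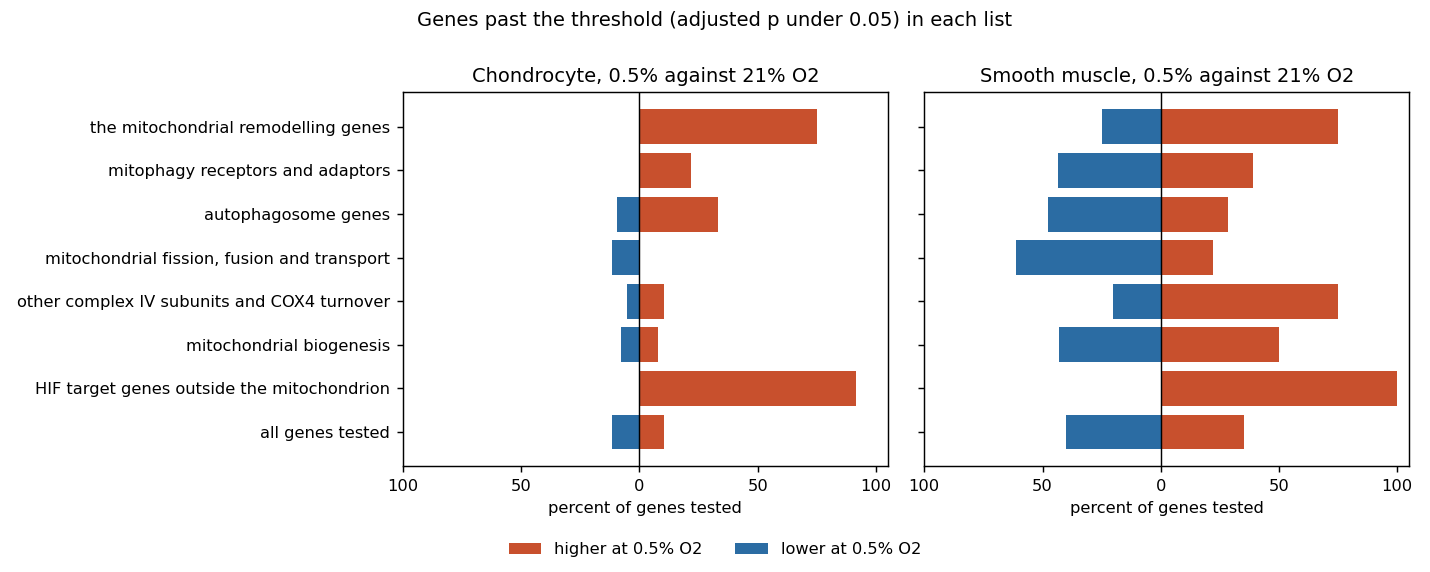
Percent of the genes tested in each list that were past the threshold and higher (red, to the right) or lower (blue, to the left) at 0.5% O2, for chondrocyte and smooth muscle cultures, with the 9 genes at the top (8 fitted) and all genes tested at the bottom. In smooth muscle cultures the top bar (6 of 8 higher, 2 lower) counts Ndufa4l2, which is given without a test there. The HIF target and biogenesis bars of that panel likewise count Car9 and Ppargc1a. In chondrocyte cultures 11 of 12 HIF targets and 6 of the 8 genes are higher, against 10.4% of all genes; in smooth muscle cultures 75.6% of all genes are called.

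In the smooth muscle comparison 35.4% of all genes rose and 40.2% fell, and the counts of these lists shift with the scaling, least for the HIF targets. All 12 HIF targets rose (median 3.94, and 11 of 12 with library size alone), with Pgk1, a glycolytic enzyme, up by 7.47 (SE 0.086, adjusted p = 9.84e-17). Car9 is in that count, but its fitted 6.41 (SE 0.48) rests on 19 normoxic counts and is given without a test. Between the same groups the smooth muscle markers went from 3531 to 3992 CPM to 94.8 to 119 CPM in sum. Mitochondrial ribosomal RNA went from at most 0.0729% to 11.6% to 13.3% of counts. The part of either in these list differences was not tested. Of 20 other complex IV genes 15 rose and 4 fell (median 1.52), against 9 and 7 with library size alone (median 0.15). Cox7a2l, which helps to join complexes III and IV, rose by 3.11 (SE 0.076, adjusted p = 2.88e-14), and Cox15, a haem A synthesis enzyme, fell by 1.57 (SE 0.12, adjusted p = 9.96e-09). Mitophagy receptors and adaptors gave 9 rises and 10 falls of 23, against 4 and 19 with library size alone, near the shares of all genes. Vdac1, the outer membrane channel, rose by 2.54 (SE 0.073, adjusted p = 1.66e-13) and Fundc2, a relative of FUNDC1, by 2.58 (SE 0.11, adjusted p = 1.25e-11), while Ambra1, an activator of autophagy, fell by 1.36 (SE 0.12, adjusted p = 8.84e-08).

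Autophagosome genes gave 6 rises and 10 falls of 21 in that comparison (1 and 19 with library size alone), where 75.6% of all genes were called. Gabarap rose by 2.63 (SE 0.074, adjusted p = 1.25e-13) and Rb1cc1, a subunit of the kinase complex that starts autophagy, fell by 2.10 (SE 0.12, adjusted p = 3.53e-10). Fission, fusion and transport genes gave 4 rises and 11 falls of 18 (none and 18), where Trak2 fell by 1.65 (SE 0.11, adjusted p = 1.90e-09), and Fis1 and Mff, receptors of the fission machinery, rose by 1.07 and 1.00 (adjusted p = 3.67e-08 and 2.85e-08) but were lower with library size alone (-0.30 and -0.37). Lonp1 rose by 1.32 (SE 0.085, adjusted p = 2.10e-09) and did not pass with library size alone (-0.05, adjusted p = 0.549). Biogenesis genes gave 7 rises and 6 falls of 14 (2 and 11). Among them Esrra, a nuclear receptor that drives mitochondrial genes, rose by 2.17 (SE 0.10, adjusted p = 4.91e-11). Ppargc1a, which encodes the coactivator PGC-1alpha, is among the falls. Its fitted difference of -3.12 (SE 0.50), from 4.17 to 0.422 CPM, rests on 16 hypoxic counts and is given without a test.

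Most of the autophagosome genes listed were higher in differentiated than in proliferating cultures at 21% O2. Of 21 genes, 17 rose and 1 fell in chondrocyte (median 0.85), 17 rose and none fell in osteoblast (median 1.26) and 16 rose and 1 fell in smooth muscle cultures (median 1.15), while 37.7%, 40.9% and 40.8% of all genes rose and 37.2%, 37.8% and 38.9% fell, with medians of -0.0029, 0.07 and 0.03. With library size alone the counts were 15 and 3, 16 and 1, and 16 and 1, and without normoxic osteoblast replicate 4 the osteoblast count was again 17 and none. Map1lc3b, for LC3B, went from 68.6 CPM in proliferating cells to 189, 339 and 338 CPM in the 3 conditions. Gabarapl1 was higher by 0.53, 2.04 and 1.18 on the log2 scale (adjusted p = 1.14e-05, 6.86e-06 and 1.25e-10). The 3 comparisons share the normoxic proliferating libraries. Between the same groups the smooth muscle markers went from 94.2 to 103 CPM to 2072 to 2524 CPM in chondrocyte, 3566 to 5105 CPM in osteoblast and 3531 to 3992 CPM in smooth muscle cultures, and their part in these counts was not tested. At 0.5% O2, 15 rose and 1 fell in chondrocyte and 19 rose and 1 fell in osteoblast cultures (medians 0.79 and 0.80), where 34.9% and 36.2% of all genes rose, and 14 and 5, and 17 and 1, with library size alone. Hypoxic smooth muscle cultures gave 11 rises and 5 falls, where 33.8% of all genes rose, against 5 and 14 with library size alone.

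The counts of the other lists at 21% O2 are given for chondrocyte, osteoblast and smooth muscle cultures in this order. Of all genes tested, 37.7%, 40.9% and 40.8% rose and 37.2%, 37.8% and 38.9% fell (74.9%, 78.7% and 79.7% in all). Since most genes were called, a count near these shares says little about a list. Mitophagy receptors and adaptors gave 8 rises and 9 falls, 11 and 8, and 13 and 8 of 23 (6 and 15, 9 and 10, and 13 and 7 with library size alone). Mitochondrial biogenesis genes gave 1 rise and 8 falls of 13, then 2 and 8 and 2 and 10 of 14 (0 and 12, 2 and 11, and 2 and 10 with library size alone; medians -0.57, -0.74 and -0.62). Other complex IV and COX4 turnover genes gave 5 rises and 7 falls, 1 and 11, and 2 and 12 of 19 (3 and 13, 1 and 13, and 3 and 11 with library size alone; medians -0.09, -0.37 and -0.37). Fission, fusion and transport genes gave 10 rises and 4 falls, 7 and 7, and 6 and 11 of 18 (3 and 9, 4 and 7, and 6 and 8 with library size alone). HIF targets gave 4 rises and 5 falls of 12 in osteoblast and 3 and 7 of 11 in smooth muscle cultures (3 and 5, and 3 and 6 with library size alone).

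The pattern of Bnip3 over the 28 libraries was most like that of Pygl, a glycogen phosphorylase (Pearson r = 0.985), Vwa1 (r = 0.978) and Plekha2 (r = 0.970). For Ndufa4l2 the nearest were Fbxl5 (r = 0.954), Gna13 (r = 0.951) and Ablim3 (r = 0.937), and for Pink1 they were Gaa, the lysosomal alpha-glucosidase (r = 0.963), Prune1 (r = 0.954) and Sgce (r = 0.953). Among the 9 genes, Bnip3, Mgarp, Higd1a and Ndufa4l2 correlated with each other at r of 0.84 to 0.96, and Pink1 with those 4 at r of -0.10 to 0.07. The libraries of a group are not independent points, so these values are descriptions.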

How the data were processed

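The count table deposited by the authors gives whole-number read counts per Ensembl gene in 28 libraries. Per the submitters' processing notes, HISAT2 2.0.5, StringTie 1.3.3b, featureCounts 1.5.0-p3 and the genome build mm10 were used; the annotation and the strand setting are not given in the sources used here. A further 10 deposited tables of pairwise comparisons, with 70 columns of per-library values, were not used. Positions come from GENCODE M21 (GRCm38, the build called mm10).

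Counts were scaled by TMM. Genes passing filterByExpr (a minimum of 10 counts at the median library size and of 15 over all libraries) were tested with edgeR 4.0.16 (R 4.3.3; glmQLFit robust, glmQLFTest, two-sided), fitted to the 2 groups of each comparison, with Benjamini-Hochberg adjustment over all genes tested and a threshold of 0.05. SE is the log2 fold change divided by the root of F. Ratios used count + 0.5 and exact permutation tests (scipy 1.17.1). Alternatives were DESeq2 1.42.0, limma-voom (limma 3.58.1), 3 other scalings, 2 filters, a fit of all 8 groups, a replicate block and leaving out each library. On simulated counts for the chondrocyte oxygen comparison (14017 genes), 81.2% of genes changed by log2 1 and 42.0% of those changed by 0.5 were recovered. Same-numbered libraries did not deviate together (r of -0.057 to 0.081 for the single replicate numbers of 10 comparisons), so numbers were not used as pairs. Over 36 pairs of libraries of a group, the chi-square per degree of freedom was 2.891 to 97.051, so none is a copy of another.

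The genes and lists were chosen with earlier results of these data known. All 9 genes are named. From each list, up to 2 called genes with the largest rise and 2 with the largest fall, with no overlap between libraries, are named in the chondrocyte and smooth muscle oxygen comparisons, and Trak2, Lonp1 and Ndufa4 always; 1 further gene is not reported here.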

Additional observations from a re-analysis of the deposited data

Results flagged for a closer look

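Of 36 sets of 4 normoxic libraries, 5 held a library far from the other 3 by Dixon's criterion, where chance gives about 1 in 20. They were normoxic proliferating replicate 4 for Bnip3l (139 CPM) and for Ndufa4l2 (0.175 CPM), normoxic proliferating replicate 1 for Cox4i2 (0.0269 CPM, a single count), normoxic smooth muscle replicate 2 for Mgarp (2.98 CPM) and normoxic osteoblast replicate 4 for Pink1 (87.0 CPM). The groups of 3 hypoxic libraries were not examined in this way.

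The oxygen change differed between chondrocyte and smooth muscle cultures by a test of the difference for 7 genes, chondrocyte minus smooth muscle on the log2 scale: -2.66 for Bnip3, -1.44 for Bnip3l, -2.63 for Mgarp, -2.85 for Cox4i1, -4.51 for Higd1a, 0.66 for Fundc1 and 1.25 for Pink1. By the same test 65.1% of all 15743 genes were called. With library size alone the Bnip3l difference was -0.20 and its call was lost. The fitted value for Ndufa4l2, -4.48, rests on 7 counts in normoxic smooth muscle libraries. In 3 further cases every hypoxic library lay on one side of the normoxic libraries in one culture condition and on the other side in smooth muscle cultures: Fundc1 in proliferating (difference of the changes 0.98) and in osteoblast cultures (0.78), and Pink1 in proliferating cultures (1.89). The difference was not tested in these 3.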

How the results depend on the processing

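The number of genes called out of the 9, Mgarp and Ndufa4l2 counted, stayed within 1.5 times its value under all alternatives, with 2 exceptions in the tested comparisons, both for normoxic chondrocyte against normoxic proliferating cultures: 8 with library size alone and 3 when at least 10 counts were required in every library (5 in the analysis reported and 5 to 6 with 1 library left out), since fewer genes are then tested. The latter filter left 3 genes past log2 1 in the osteoblast oxygen comparison. Leaving out 1 library at a time kept the counts at 6 and 8 in the chondrocyte and smooth muscle oxygen comparisons. Differences past the threshold under at least 1 of the 2 scalings reversed with library size alone for Fis1 (-0.30), Mff (-0.37) and Lonp1 (-0.054) in the smooth muscle oxygen comparison, for Bnip3l (-0.23) and Fundc1 (-0.31) in normoxic chondrocyte cultures, for Bnip3 (-0.25) in hypoxic chondrocyte cultures and for Bnip3 (-1.23), Bnip3l (-0.92), Mgarp (-1.25) and Pink1 (-0.48) in hypoxic smooth muscle cultures, the last 3 sets against proliferating cells; that scaling shifts all genes alike. Of the differences past it under neither, Bnip3l in normoxic osteoblast (0.11 to -0.046) and Fundc1 in hypoxic osteoblast cultures (0.16 to -0.064) changed sign against proliferating cells, and differences near 0 of Bnip3, Mgarp, Cox4i1 and Fundc1 did so under some other alternatives. With the replicate number as a block, Ndufa4l2 in chondrocyte cultures at low oxygen was 2.58 with adjusted p = 0.0789, and the block took no other call of the 9 genes; the numbers do not pair the libraries. In that chondrocyte comparison 3157 genes were called, and 2091 without hypoxic replicate 3. Ndufa4 lost its call in 5 of 18 settings in normoxic osteoblast, 4 of 16 in hypoxic chondrocyte and 1 of 16 in hypoxic smooth muscle cultures against proliferating cells. The depth limits Cox4i2 and normoxic Ndufa4l2, and the stated counting limits cover counting error only.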
